A study of Mus musculus with 672 samples.

Results

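Ptf1a, Rbpjl, Nr5a2, Bhlha15 and Gata4 encode 5 transcription factors of the acinar cell, the exocrine cell of the pancreas that makes and secretes digestive enzymes. They were chosen by name, not by their values, from the 46078 genes of the count tables, and their levels were followed across plates, ages and cell classes. The cells came from the pancreas of C57BL/6 mouse embryos at embryonic days E13.25 and E15.25, and the labels name no genetic change or treatment in any group. Cells were stained with antibodies, sorted singly by flow cytometry into 7 plates of 96 wells and sequenced with a Smart-seq2 type protocol, which reads whole transcripts. At E13.25 there were 4 plates, numbered by pancreas from 1 to 4 with no region given, and titles of pancreas 4 carry an extra mouse number. At E15.25 there were 3 plates from 2 buds: the tip of bud 1, the tip of bud 2 and the trunk of bud 2, called here tip 1, tip 2 and trunk 2. The antibodies and sort gates are not given, and the extraction text of the E15.25 cells also speaks of E13.25 embryos, and ages were taken from the age label of each cell. Age and the region sampled cannot be told apart, because a region is named at E15.25 alone. The plates may not be independent embryos, and p-values between ages or classes measure only the spread between plates.

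In the developing pancreas the epithelium separates into tips, whose cells give rise to acinar cells, and a trunk, whose cells give rise to ducts and, through Neurog3, to endocrine cells. Acinar genes are switched on by PTF1, a complex of the basic helix-loop-helix protein PTF1A, an E protein (Tcf3, Tcf4 or Tcf12) and a partner that is RBPJ in early progenitors and its paralog RBPJL in maturing acinar cells. PTF1 binds an E-box that lies close to a box bound by RBPJ or RBPJL. NR5A2, a nuclear receptor, works with PTF1 at acinar genes. GATA4, a zinc-finger factor, acts with GATA6 in pancreatic progenitors. BHLHA15, also called MIST1, is a basic helix-loop-helix factor of mature secretory cells that drives genes of granule traffic and cell polarity.

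Ptf1a (ENSMUSG00000026735) lies on the plus strand of GRCm38 at chr2:19445663-19447501, and Rbpjl (ENSMUSG00000017007) on the plus strand of the same chromosome at chr2:164403141-164415448. Nr5a2 (ENSMUSG00000026398) lies on the minus strand at chr1:136842571-136960448. Bhlha15 (ENSMUSG00000052271) lies on the plus strand at chr5:144190286-144194441. Gata4 (ENSMUSG00000021944) lies on the minus strand at chr14:63198922-63271692. Of the exon bases of Ptf1a, 40.4% are shared with the antisense gene Ptf1aos, which held 62 reads against 60679 on Ptf1a. The antisense gene Matn4 shares 2.6% of the exon bases of Rbpjl and held 28325 reads against 204083 on Rbpjl. The strand setting of the counting is not given, so reads of these antisense pairs may not be fully separated.

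RefSeq promoters (GRCm38.p6) were found for 4 of the 5 genes, and Gata4 had no entry in the table used. They are shown because PTF1 and the GATA factors are known by the short motifs they bind. Rbpjl and Ptf1a also moved together across sums of plate and class. Each stretch below runs 5′ to 3′ on the strand of its gene and ends at the base before the annotated start. Capitals mark matches, on either strand, to the E-box CANNTG, to the RBPJ core TGGGAA and to the GATA motif AGATAA. The stretches are chr2:19445413-19445662 (plus) for Ptf1a, chr2:164402944-164403140 (plus) for Rbpjl, chr1:136960449-136960698 (minus) for Nr5a2 and chr5:144190036-144190285 (plus) for Bhlha15.
Ptf1a: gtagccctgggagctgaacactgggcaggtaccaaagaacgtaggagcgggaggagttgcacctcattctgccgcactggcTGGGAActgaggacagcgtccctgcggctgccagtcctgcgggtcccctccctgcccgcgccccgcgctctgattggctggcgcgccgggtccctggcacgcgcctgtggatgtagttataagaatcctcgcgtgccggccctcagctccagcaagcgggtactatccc
Rbpjl: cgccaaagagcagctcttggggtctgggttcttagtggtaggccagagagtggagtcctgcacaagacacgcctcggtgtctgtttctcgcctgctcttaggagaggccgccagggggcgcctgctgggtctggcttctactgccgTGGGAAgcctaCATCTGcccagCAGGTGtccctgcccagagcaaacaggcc
Nr5a2: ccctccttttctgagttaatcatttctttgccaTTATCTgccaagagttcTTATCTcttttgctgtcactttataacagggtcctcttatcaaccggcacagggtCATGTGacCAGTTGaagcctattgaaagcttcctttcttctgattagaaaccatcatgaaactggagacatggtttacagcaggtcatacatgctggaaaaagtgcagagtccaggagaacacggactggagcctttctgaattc
Bhlha15: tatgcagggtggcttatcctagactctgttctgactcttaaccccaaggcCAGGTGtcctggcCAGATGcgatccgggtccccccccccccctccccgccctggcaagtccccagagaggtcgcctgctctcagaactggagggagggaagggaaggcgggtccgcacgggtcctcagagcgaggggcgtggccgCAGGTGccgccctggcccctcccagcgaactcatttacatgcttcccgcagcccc
The Rbpjl stretch held an RBPJ core beginning 51 bases before its end, with 5 bases between it and the E-box CATCTG and 16 bases between it and the E-box CAGGTG. An E-box and an RBPJ core with at most 30 bases between them occurred in 5.73% of 32536 distinct promoter stretches of 250 bases, and in 4.53% when these were shortened to the length of the Rbpjl stretch. The Ptf1a stretch held 1 RBPJ core and no E-box, the Bhlha15 stretch 3 E-boxes, and the Nr5a2 stretch 2 E-boxes and 2 GATA motifs. Single motifs are common: 66.2% of all stretches held an E-box, 21.6% an RBPJ core and 9.97% a GATA motif. A match describes the letters only and is no evidence of binding.

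Of 672 wells, 601 cells passed the filters, 340 at E13.25 and 261 at E15.25, with 80 to 89 cells per plate and a median of 773545 to 1526820 reads on genes per cell. Cells were put into classes by the CPM of 4 genes, that is by their reads scaled to a common total of reads on genes per cell. Cpa1 cells, named for the early acinar and tip enzyme carboxypeptidase A1, had at least 500 CPM of Cpa1 alone. Spp1 cells, named for a trunk and duct gene, had at least 500 CPM of Spp1 alone, and Cpa1+Spp1 cells had both. Neurod1 cells, of the endocrine lineage, had at least 100 CPM of Neurod1, and Col3a1 cells, of the mesenchyme, at least 500 CPM of Col3a1 without the others. These classes held 104, 114, 59, 43 and 212 cells, 42 cells passed none of the minimums, and 27 cells passed Col3a1 together with another. Markers outside the rule followed the classes: 8 of 8 acinar or tip markers were highest in Cpa1 cells, 8 of 10 trunk or duct markers in Spp1 cells, 10 of 10 endocrine markers in Neurod1 cells and 10 of 10 mesenchyme markers in Col3a1 cells. Plates differed in ways the ages do not fully explain: unaligned reads made up a median of 27.7% to 32.5% in plates 1 to 3 of E13.25, 47.2% in plate 4 and 45.3% to 50.1% at E15.25. Reads carry no molecular identifiers, so limits given for a count of 0 cells cover counting error only, whereas intervals of log2 differences come from the spread between plates.

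Within plates, Ptf1a, Rbpjl, Bhlha15 and Gata4 were higher in Cpa1 cells than in Spp1, Neurod1 and Col3a1 cells, while Nr5a2 was shared with Spp1 cells. Against Spp1 cells 4 of the 5 genes were higher, where 4.45% of 17252 genes were called in either direction and 2.18% were called higher and 2.27% lower in Cpa1 cells. Against Neurod1 cells all 5 were higher, with 18.7% of genes called, 10.7% higher and 8.05% lower. Against Col3a1 cells all 5 were higher, with 20.9% called, 8.87% higher and 12.1% lower. The test was edgeR's quasi-likelihood test on reads summed per plate and class, with the plate as a block, at least 5 cells per sum and a Benjamini-Hochberg adjusted p under 0.05. Without the replicate block 4 of 5 genes were called against Neurod1 cells, because Bhlha15 then had an adjusted p of 0.0517.

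**Figure D1:**
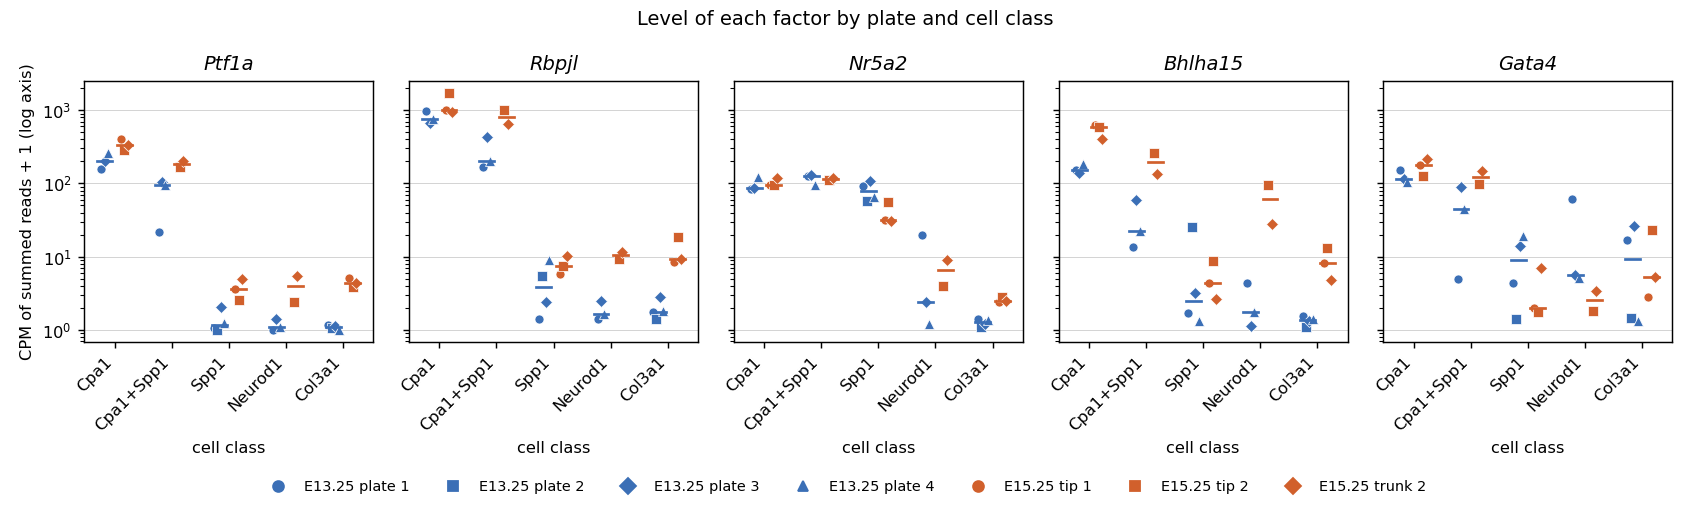
Level of each factor, as CPM of summed reads plus 1 on a log axis, in each plate and cell class with at least 5 cells; points are plates, blue for E13.25 and orange for E15.25, and short bars are medians over the plates of an age. Ptf1a and Rbpjl stand high in Cpa1 and Cpa1+Spp1 cells and low elsewhere, and Nr5a2 stays between 29.2 and 105.5 CPM in Spp1 cells.

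Ptf1a, which supplies the DNA-binding helix-loop-helix subunit of PTF1, stood in Cpa1 cells at 155, 589, 199 and 263 CPM in E13.25 plates 1 to 4 and at 407, 286 and 330 CPM in tip 1, tip 2 and trunk 2. The E13.25 plate with the high value held 3 Cpa1 cells and stayed outside the fits by the cell minimum, and the other E13.25 plates lay below all 3 E15.25 plates. In Spp1 cells Ptf1a lay between 0 and 1.07 CPM at E13.25 and between 1.52 and 3.97 CPM at E15.25. In Neurod1 cells it did not exceed 4.39 CPM, and in Col3a1 cells 4.17 CPM, in any plate. The difference on the log2 scale was 8.64 (SE 0.825, adjusted p = 2.15e-06) for Cpa1 minus Spp1 cells, 9.05 (SE 0.978, adjusted p = 4.31e-06) for Cpa1 minus Neurod1 cells and 8.75 (SE 0.874, adjusted p = 6.75e-07) for Cpa1 minus Col3a1 cells.

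Rbpjl, the acinar partner in PTF1, stood in Cpa1 cells at 985, 985, 660 and 758 CPM in E13.25 plates 1 to 4 and at 1001, 1726 and 932 CPM in tip 1, tip 2 and trunk 2. The ages overlapped, since trunk 2 lay below plates 1 and 2. In Spp1 cells its levels ran from 0.408 to 8.02 CPM at E13.25 and from 4.87 to 9.15 CPM at E15.25. The log2 difference was 8.03 (SE 0.800, adjusted p = 3.6e-06) against Spp1 cells, 8.91 (SE 0.929, adjusted p = 2.91e-06) against Neurod1 cells and 8.57 (SE 0.778, adjusted p = 2.33e-07) against Col3a1 cells. Ptf1a and Rbpjl kept these calls under all 20 alternatives tried for each contrast.

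Nr5a2 did not separate Cpa1 from Spp1 cells. Its level in Cpa1 cells was 82.5, 38.6, 86.2 and 121 CPM in E13.25 plates 1 to 4 and 93.8, 95.1 and 118 CPM in tip 1, tip 2 and trunk 2. In Spp1 cells it was 91.9, 57.2, 105.5 and 64.6 CPM in the E13.25 plates and 30.4, 54.3 and 29.2 CPM in tip 1, tip 2 and trunk 2. The 2 classes overlapped at E13.25, while at E15.25 each Cpa1 value lay above each Spp1 value. The log2 difference of Cpa1 minus Spp1 cells was 0.62 (SE 0.738, 95% interval -0.93 to 2.16, adjusted p = 0.762), and it was not called under any of 20 alternatives. Cpa1+Spp1 cells in plates with at least 5 such cells held 95 to 130 CPM at E13.25 and 110 and 119 CPM at E15.25. Neurod1 and Col3a1 cells had little: Nr5a2 was 4.69 higher in Cpa1 than in Neurod1 cells (log2, SE 0.951, adjusted p = 0.00177) and 7.26 higher than in Col3a1 cells (SE 0.879, adjusted p = 7.04e-06). Where sums had to hold at least 10 cells, the Neurod1 class came down to the sum of trunk 2 alone, and the log2 difference was 3.97.

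Gata4 in Cpa1 cells stood at 150, 246, 113 and 102 CPM in E13.25 plates 1 to 4 and at 175, 126 and 218 CPM in tip 1, tip 2 and trunk 2. The ages overlapped. Spp1 cells held 3.38, 0.393, 12.8 and 18 CPM in the E13.25 plates and 0.973, 0.726 and 6.02 CPM at E15.25, with 10 of 70 and 2 of 44 cells at 10 CPM or more. The log2 difference was 5.01 (SE 1.12, adjusted p = 0.0122) against Spp1 cells, 5.05 (SE 1.36, adjusted p = 0.0135) against Neurod1 cells and 4.40 (SE 1.08, adjusted p = 0.00607) against Col3a1 cells. Against Spp1 cells the adjusted p was 0.0522 without tip 1 and 0.0713 without trunk 2, and against Neurod1 cells 0.079 without trunk 2. A minimum of 10 cells per sum left the Neurod1 class with trunk 2 alone, so calls under it decide nothing.

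Bhlha15 in Cpa1 cells stood at 153, 65.9, 137 and 181 CPM in E13.25 plates 1 to 4 and at 625, 594 and 408 CPM in tip 1, tip 2 and trunk 2. All 3 E15.25 plates lay above all 4 E13.25 plates. In Spp1 cells it lay between 0.321 and 2.22 CPM in 3 E13.25 plates and at 24.6 CPM in plate 2, and between 1.65 and 7.66 CPM at E15.25. The Bhlha15 reads behind the value of plate 2 all came from 1 cell, with 100.5 CPM of Bhlha15, 4289 CPM of Neurog3 and 0.687 CPM of Cpa1. The log2 difference was 7.19 (SE 1.14, adjusted p = 7.3e-04) against Spp1 cells, 5.47 (SE 1.10, adjusted p = 0.00168) against Neurod1 cells and 7.90 (SE 1.03, adjusted p = 1.57e-05) against Col3a1 cells. With a minimum of 10 cells per sum the Neurod1 class was trunk 2 alone, so that setting decides nothing for Bhlha15.

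Levels of different genes were compared per kb of exon in Cpa1 cells. At E13.25 (3 plates) Rbpjl had 140 ± 29.1 (SD) and Ptf1a 137 ± 36.1 CPM per kb, followed by Bhlha15 with 44.9 ± 6.34, Gata4 with 31.2 ± 6.43 and Nr5a2 with 16.4 ± 3.61. At E15.25 (3 plates) Ptf1a had 226 ± 40.6, Rbpjl 213 ± 76.7, Bhlha15 155 ± 33.6, Gata4 44.3 ± 11.7 and Nr5a2 17.3 ± 2.30 CPM per kb. Ptf1a and Rbpjl differed by less than their SD at both ages. At E15.25 Rbpjl and Bhlha15 differed by less than the SD of Rbpjl but by more than that of Bhlha15.

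Between ages, Bhlha15 was the 1 member that passed the test in both comparisons. On whole plates 2 of the 5 genes were called, both higher at E15.25, where 0.68% of 20728 genes were called, 0.468% higher and 0.212% lower. Among Cpa1 cells 1 of the 5 was called, where 0.909% of 13863 genes were called, 0.606% higher and 0.303% lower. All 5 had positive differences in both, with a median of 2.05 on whole plates and 1.10 in Cpa1 cells (log2), beside -0.05 over all genes in each. In a whole plate, fewer cells of a class and less RNA per cell cannot be told apart, and the share of Cpa1 cells was 3.75% to 12.8% in the E13.25 plates and 18% to 47.1% at E15.25.

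Summed over whole plates, Bhlha15 stood at 18.3, 11.5, 38.1 and 32.1 CPM in E13.25 plates 1 to 4 and at 329, 168 and 125 CPM in tip 1, tip 2 and trunk 2. The groups did not overlap, and the log2 difference was 3.45 (SE 0.506, 95% interval 2.28 to 4.62, adjusted p = 0.0372). Rbpjl stood at 118, 95, 204 and 145 CPM and at 522, 493 and 291 CPM. Its groups did not overlap either, and the log2 difference was 2.05 (SE 0.330, 95% interval 1.29 to 2.81, adjusted p = 0.0448). Both calls were lost on leaving out any 1 of the 7 plates. The adjusted p was then 0.0674 to 0.118 for Bhlha15 and 0.0674 to 0.154 for Rbpjl. A term for plates with under 40% of reads not aligned sets E13.25 plates 1 to 3 apart. It leaves plate 4 as the only E13.25 plate against the E15.25 plates, so calls under it decide nothing.

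Ptf1a on whole plates stood at 18.4, 32.8, 57.5 and 51.1 CPM at E13.25 and at 213, 86.8 and 102 CPM at E15.25, with a log2 difference of 2.13 (95% interval 1.07 to 3.18, adjusted p = 0.0851). The groups did not overlap, but the difference did not pass. Gata4 stood at 30.4, 18.8, 47 and 27.4 CPM and at 91.2, 42.9 and 68.6 CPM, with a log2 difference of 1.52 (95% interval 0.74 to 2.30, adjusted p = 0.0926), and plate 3 lay above tip 2. Nr5a2 stood at 24.9, 18.8, 69.2 and 48.2 CPM and at 57.9, 48.3 and 49.5 CPM. Its E15.25 plates lay within the range of the E13.25 plates, and the log2 difference was 0.76 (95% interval -0.23 to 1.76, adjusted p = 0.417).

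Among Cpa1 cells alone (plates 1, 3 and 4 against the 3 E15.25 plates) the log2 difference of Bhlha15 was 2.27 (SE 0.255, 95% interval 1.67 to 2.87, adjusted p = 0.0176), with all 3 E15.25 plates above the E13.25 plates. The adjusted p was 0.0347 without plate 4 and between 0.0567 and 0.112 without each of the other 5 plates. Plate 4, the E13.25 plate with a share of unaligned reads like that of the E15.25 plates, held 181 CPM and lay below all 3 of them. A fit with a term that sets plates 1 and 3 apart, and so compares plate 4 alone with the E15.25 plates, gave 2.02. Ptf1a (1.2, 95% interval 0.54 to 1.87, adjusted p = 0.0971), Rbpjl (1.10, 0.42 to 1.78, adjusted p = 0.126), Gata4 (1, 0.36 to 1.64, adjusted p = 0.137) and Nr5a2 (0.56, -0.08 to 1.2, adjusted p = 0.384) did not pass in Cpa1 cells. DESeq2 called 4 of the 5 genes higher in each of these age comparisons, the exception being Nr5a2. It also called far more genes overall: 10.2% on whole plates (4.72% higher, 5.5% lower) and 9.87% in Cpa1 cells (5.76% higher, 4.1% lower).

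The age differences carry a scaling. With library size alone in place of TMM, the median over all genes moved from -0.05 to -0.44 on whole plates and from -0.05 to -0.54 in Cpa1 cells, and the Bhlha15 differences were 3.06 (adjusted p = 0.0375) and 1.79 (adjusted p = 0.0247). The whole-plate calls then split into 81 higher and 231 lower genes in place of 97 and 44, and the calls in Cpa1 cells into 110 and 283 in place of 84 and 42. Rbpjl on whole plates then had a difference of 1.63 and an adjusted p of 0.0514. Erythroid genes also moved with age in Cpa1 cells: the 6 erythroid markers summed to 7.81 to 162 CPM in the E13.25 plates and to 94.1 to 8232 CPM at E15.25. None of the 6 was at 0, and their median log2 difference was 6.06. By edgeR none was called, with 5 at an unadjusted p under 0.05, beside 2189 of all 13863 genes, and DESeq2 called 5. The median mitochondrial share of reads also moved with age, from 3.43% to 4.23% in the E13.25 plates against 5.12% to 5.77% at E15.25, with no overlap. The part of erythroid RNA and of mitochondrial share in the age differences was not tested.

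**Figure D2:**
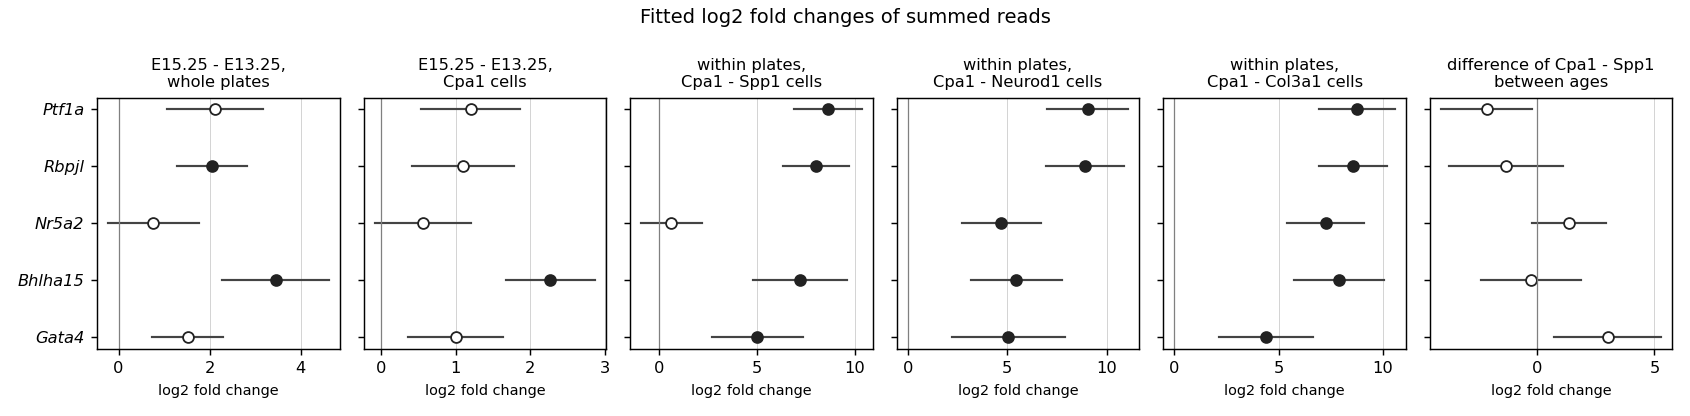
Fitted log2 differences of the 5 factors with 95% intervals, in 6 comparisons with their own axes; filled points passed an adjusted p under 0.05. Nr5a2 is the open point in Cpa1 minus Spp1 cells (0.62), and Bhlha15 is filled in both age comparisons (3.45 and 2.27).

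Whether the Cpa1 minus Spp1 difference itself changed with age was tested in plates with at least 5 cells of each class. None of the 5 genes passed, with 2 at an unadjusted p under 0.05, where 1 of 16540 genes (0.00605%) was called by edgeR and 1350 had an unadjusted p under 0.05. Gata4 had the largest estimate of the 5, 3.02 on the log2 scale (95% interval 0.74 to 5.30, adjusted p = 0.511), and was the 1 member called by DESeq2 (adjusted p = 0.0299), which called 4.79% of genes (3.45% higher, 1.34% lower). The estimates were -2.14 (-4.08 to -0.20, adjusted p = 0.571) for Ptf1a, 1.35 (-0.21 to 2.92, adjusted p = 0.668) for Nr5a2, -1.31 (-3.73 to 1.11, adjusted p = 0.803) for Rbpjl and -0.25 (-2.39 to 1.89, adjusted p = 0.963) for Bhlha15. The intervals are wide, and each of them takes in changes of more than 2-fold.

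Per cell, a factor was counted as detected at 10 CPM or more. Rbpjl was detected in all 30 Cpa1 cells at E13.25 and in all 74 at E15.25. Ptf1a was detected in 86.7% and 100%, Gata4 in 93.3% and 89.2%, and Nr5a2 in 83.3% and 91.9%. Bhlha15 was the least often detected at E13.25, in 70% of Cpa1 cells, against 98.6% at E15.25. By plate, Bhlha15 was detected in 74.1% ± 18.4 (SD, n = 4) of Cpa1 cells at E13.25 and in 98.0% ± 3.40 (n = 3) at E15.25. The Cpa1 cells of E13.25 were the deeper ones, with a median of 1799260 reads against 1035940. Thinned to 100000 reads per cell, Bhlha15 had a read in 73.3% and 100% of Cpa1 cells. In Col3a1 cells the same thinning gave 2.55% and 52.7%, so no age difference of Cpa1 cells is read from it.

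**Figure D3:**
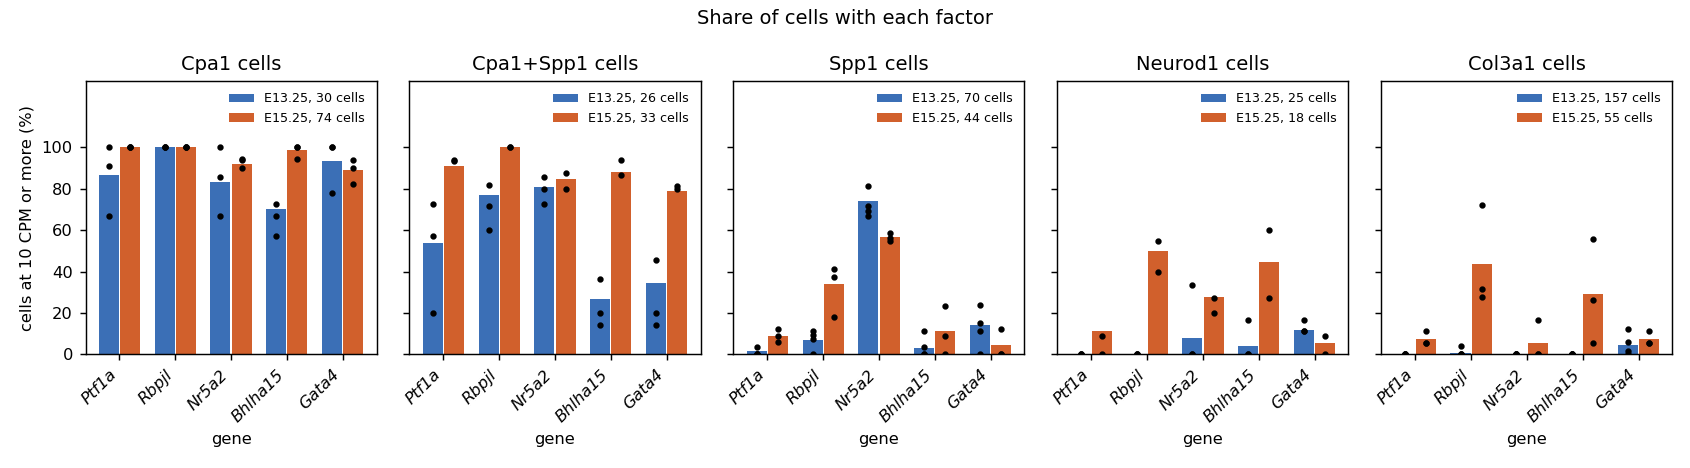
Share of cells (%) with each factor at 10 CPM or more in 5 cell classes; bars pool the cells of an age and points are plates with at least 5 cells of the class. Rbpjl is at 100% in Cpa1 cells of both ages, and Nr5a2 at 74.3% and 56.8% in Spp1 cells.

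All 5 factors were detected together in 42.9%, 66.7%, 72.7% and 22.2% of the Cpa1 cells of E13.25 plates 1 to 4 and in 85.4%, 76.5% and 87.5% of those of tip 1, tip 2 and trunk 2. The mean was 51.1% ± 23.2 (SD, n = 4) at E13.25 and 83.1% ± 5.85 (n = 3) at E15.25, and the groups did not overlap. The value of plate 2 rests on 3 cells. Shares at 10 CPM also rose with age in Col3a1 cells, for Rbpjl from 0.637% to 43.6% and for Bhlha15 from 0% to 29.1%. There Ptf1a went from 0% to 7.27%, Nr5a2 from 0% to 5.45% and Gata4 from 4.46% to 7.27%. No Col3a1 cell had all 5 at 10 CPM. Of the 30 Cpa1 cells of E13.25, 15 had all 5 factors and 6 lacked Bhlha15 alone. At E15.25, 62 of 74 had all 5 and 5 lacked Gata4 alone. The share depends on the minimum. At 1 read or more the means were 61.7% at E13.25 and 96.1% at E15.25, and the groups did not overlap. A single read was also common outside Cpa1 cells at E15.25. In Col3a1 cells of that age Ptf1a had a read in 87.3%, Rbpjl in 100%, Nr5a2 in 65.5%, Bhlha15 in 94.5% and Gata4 in 76.4%. At E13.25 these shares were 8.92%, 40.1%, 22.3%, 17.8% and 24.2%. Detection of 1 read thus rose with age outside Cpa1 cells too, and no age difference of Cpa1 cells is read from it. At 50 CPM the means were 33.2% and 43.3%, and the ages overlapped, with 11.1% to 45.5% in the E13.25 plates and 29.4% to 68.8% at E15.25. At that minimum Nr5a2 was detected in 66.7% of Cpa1 cells at E13.25 and 59.5% at E15.25, and Gata4 in 80% and 67.6%.

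Ptf1a was found only with Rbpjl at E13.25: all 42 cells with Ptf1a had Rbpjl, whereas 15 of the 57 cells with Rbpjl lacked Ptf1a. By counting error alone, and not the spread between plates, 0 of these 42 cells allows a share without detected Rbpjl of up to 7.14%. At E15.25 123 of 127 cells with Ptf1a had Rbpjl. With Cpa1 at 500 CPM or more, the overlap at E13.25 was 41 of 42 Ptf1a cells, 51 of 57 Rbpjl cells and 29 of 33 Bhlha15 cells. Gata4 and Nr5a2 reached beyond Cpa1: 38 of 59 Gata4 cells and 47 of 101 Nr5a2 cells had Cpa1. At E15.25 the same counts were 116 of 127 for Ptf1a, 119 of 182 for Rbpjl, 112 of 147 for Bhlha15, 95 of 104 for Gata4 and 102 of 137 for Nr5a2. In all, 19 of 340 cells at E13.25 and 86 of 261 at E15.25 had all 5 factors, and 217 and 47 had none. These counts mix classes, and Col3a1 cells made up 46.2% of cells at E13.25 and 21.1% at E15.25. Among Col3a1 cells, 150 of 157 and 26 of 55 had no factor at 10 CPM.

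The factors appeared over different ranges of Cpa1. At E13.25, cells under 20 CPM of Cpa1 (213 cells) had Ptf1a in 0%, Rbpjl in 0.939%, Bhlha15 in 1.88%, Gata4 in 7.51% and Nr5a2 in 16.4%. Leaving out cells with Col3a1 at 500 CPM or more, 86 cells were left. They had Ptf1a in 0%, Rbpjl in 1.16%, Bhlha15 in 4.65%, Gata4 in 10.5% and Nr5a2 in 40.7%. Between 500 and 5000 CPM (33 cells) Rbpjl and Nr5a2 were each detected in 72.7%, Ptf1a in 54.5%, Gata4 in 48.5% and Bhlha15 in 33.3%. Between 5000 and 50000 CPM (27 cells) the shares were 100% for Rbpjl, 85.2% for Ptf1a and for Nr5a2, 81.5% for Gata4 and 66.7% for Bhlha15. At E15.25 the same range of 500 to 5000 CPM (42 cells) had Rbpjl in 95.2%, Ptf1a in 90.5% and Bhlha15 in 83.3%, while Nr5a2 (66.7%) and Gata4 (54.8%) were lower. Of these cells, 30 were under 500 CPM of Col3a1. They had Rbpjl in 100%, Ptf1a in 93.3%, Bhlha15 in 90%, Nr5a2 in 76.7% and Gata4 in 66.7%. The same cut at E13.25 left 29 cells, with Rbpjl and Nr5a2 in 79.3%, Ptf1a in 58.6%, Gata4 in 51.7% and Bhlha15 in 34.5%. The bins hold kept cells of any class, so their shares depend on the mix of classes. Cells of a bin come from several plates and were not tested between ages.

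**Figure D4:**
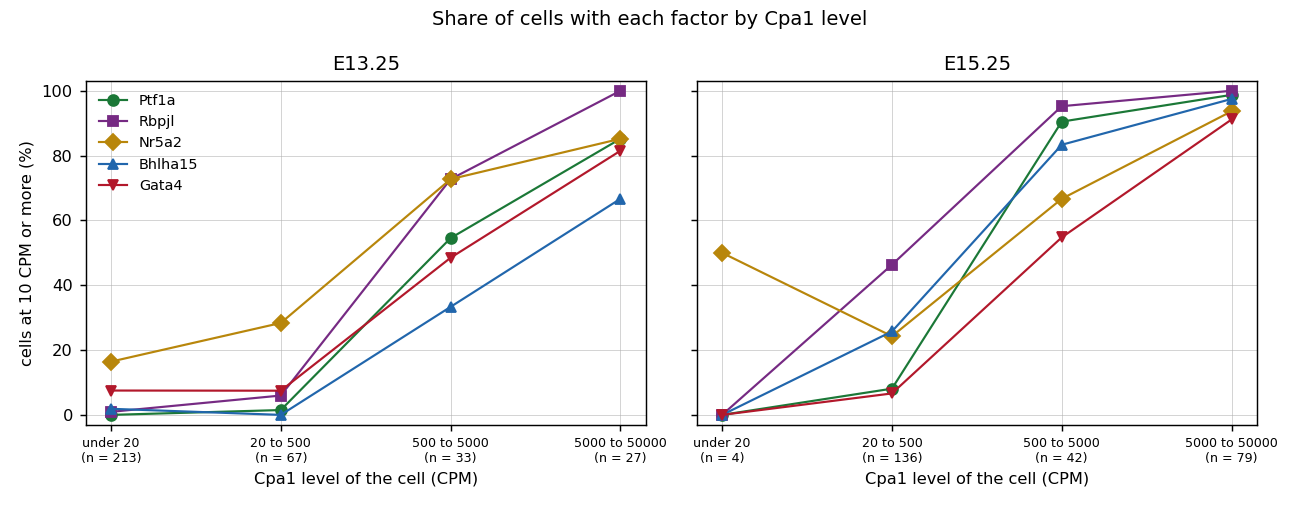
Share of all kept cells (%), of any class, with each factor at 10 CPM or more, by the Cpa1 level of the cell (CPM, in bins) at E13.25 and E15.25. Lines join the bins of a factor and n is the number of cells. At 500 to 5000 CPM of Cpa1, Bhlha15 is at 33.3% at E13.25 and 83.3% at E15.25, and the E15.25 bin under 20 CPM holds only 4 cells.

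Cells with both Cpa1 and Spp1 were described at both ages without a test. At E13.25 26 such cells had Nr5a2 in 80.8%, Rbpjl in 76.9% and Ptf1a in 53.8%, but Gata4 in 34.6% and Bhlha15 in 26.9%, and 3 of 26 had all 5. At E15.25 33 such cells had Rbpjl in 100%, Ptf1a in 90.9%, Bhlha15 in 87.9%, Nr5a2 in 84.8% and Gata4 in 78.8%, and 21 of 33 had all 5. These E15.25 cells were shallow, with a median of 347080 reads against 1381520 at E13.25, and their median Cpa1 was 5388 CPM against 2260 CPM. Among the 19 E15.25 cells with at least 300000 reads, 14 had all 5 factors. At 50 CPM, Ptf1a was detected in 53.8% and 66.7% of Cpa1+Spp1 cells at E13.25 and E15.25, Rbpjl in 69.2% and 93.9%, Bhlha15 in 26.9% and 57.6%, Gata4 in 19.2% and 51.5%, and Nr5a2 in 73.1% and 60.6%.

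Nr5a2 was the member most often detected in Spp1 cells at both ages. Nr5a2 was detected in 52 of 70 Spp1 cells at E13.25 (74.3%) and in 25 of 44 at E15.25 (56.8%), and as the only one of the 5 in 37 of 70 and 18 of 44 cells. Rbpjl came next at E15.25, in 34.1% of Spp1 cells at 10 CPM but in 2.27% at 50 CPM. Col3a1 cells of that age had Rbpjl at 10 CPM in 43.6%. Whether Spp1 cells express Rbpjl or hold reads from elsewhere was not tested, and no expression is read from their share at 10 CPM. None of these Spp1 cells had all 5, which for detection at 10 CPM, and by counting error alone, allows a share of up to 4.29% at E13.25 and 6.82% at E15.25. In plate sums Nr5a2 lay between 57.2 and 105.5 CPM at E13.25 and between 29.2 and 54.3 CPM at E15.25, groups that did not overlap. Age within Spp1 cells was not fitted on its own.

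Low levels outside Cpa1 cells at E15.25 came with Cpa1 itself. In Spp1, Neurod1 and Col3a1 cells Cpa1 ran from 2.15 to 68.9 CPM in the E13.25 plates and from 62.7 to 250 CPM in the E15.25 plates. Col3a1 cells with Rbpjl at 10 CPM went from 0.637% of 157 cells to 43.6% of 55 cells and those with Bhlha15 from 0% to 29.1%, but at 50 CPM the E15.25 shares were 3.64% and 1.82%. Per 1000 Cpa1 reads, Col3a1 cells of tip 1, tip 2 and trunk 2 held 23.6, 22 and 16 reads of Ptf1a, and Cpa1 cells of the same plates 21.2, 23.7 and 16.4. For Rbpjl the ratios were 42.8, 140 and 39.1 in Col3a1 cells and 52.3, 143 and 46.2 in Cpa1 cells. For Bhlha15 they were 40.8, 95.9 and 18.1 in Col3a1 cells and 32.6, 49.2 and 20.2 in Cpa1 cells, so that tip 2 differed by about 2-fold. Gata4 differed in tip 2, with 176 against 10.4, and Nr5a2 had 7.98, 14.3 and 7.11 against 4.90, 7.87 and 5.85. Cpa1 is also a gene of the class rule. Whether Col3a1 cells express these genes or hold reads from elsewhere was not tested, and no expression is read from their shares at 10 CPM.

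Nr5a2 in Spp1 cells and Bhlha15 in Neurod1 cells lay above the Col3a1 cells of the same E15.25 plates. Nr5a2 was 30.4, 54.3 and 29.2 CPM in Spp1 cells of tip 1, tip 2 and trunk 2, against 1.41, 1.83 and 1.49 CPM in Col3a1 cells. Bhlha15 in Neurod1 cells was 75, 93.2 and 27.1 CPM in these plates, against 7.19, 12.2 and 3.80 CPM in Col3a1 cells, and at most 3.35 CPM in Neurod1 cells at E13.25. These levels rest on few cells: 18 Neurod1 cells at E15.25, of which 3 passed 50 CPM, with 78 CPM in tip 1, 322 CPM in tip 2 and 239 CPM in trunk 2.

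Gata4 reads in Col3a1 cells lay mostly in a few cells with mesothelial genes. In 8 of 212 Col3a1 cells Gata4 lay between 64.7 and 759 CPM. Of the 7 genes of the list for mesothelium, the layer that covers the organ, Wt1, Upk1b, Lrrn4 and Aldh1a2 were at 50 CPM or more in all 8 cells, Upk3b in 7, Krt19 in 5 and Msln in 1, with Msln at 0 in 6. Among the other 204 Col3a1 cells the same genes passed 50 CPM in 42.6% for Wt1, 7.35% for Upk1b, 5.39% for Lrrn4, 11.8% for Aldh1a2, 8.33% for Upk3b, 6.37% for Krt19 and 0% for Msln. Of the 24 Col3a1 cells with both Wt1 and Upk3b at 50 CPM or more, 9 had Gata4 at 10 CPM or more, against 1 of 71 cells with Wt1 but not Upk3b at that level and 1 of 117 cells with less Wt1. This split by Wt1 and Upk3b was chosen after the values were seen.

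The partner genes of PTF1 were not called between ages. Rbpj, the widely expressed paralog of Rbpjl, stood on whole plates at 44.7, 49.2, 31.2 and 37.6 CPM at E13.25 and at 10.8, 15.4 and 22.6 CPM at E15.25 (log2 -0.94, 95% interval -1.66 to -0.22, adjusted p = 0.185). In Cpa1 cells it had 25, 38, 21.9 and 44.8 CPM at E13.25 and 6.32, 16.8 and 4.67 CPM at E15.25 (log2 -1.25, -2.91 to 0.42, adjusted p = 0.459). Of the 4 partners (Rbpj, Tcf3, Tcf4 and Tcf12) none was called by edgeR in either age comparison, with 2 at an unadjusted p under 0.05 in each, and DESeq2 called 2 on whole plates and 1 in Cpa1 cells. Of all genes, 3551 of 20728 on whole plates and 2189 of 13863 in Cpa1 cells had an unadjusted edgeR p under 0.05. DESeq2 called 10.2% of all genes on whole plates and 9.87% in Cpa1 cells. Against Col3a1 cells 2 of the 4 partners were lower in Cpa1 cells, the E protein genes Tcf4 (-2.20) and Tcf12 (-1.32). Of 17252 genes, 12.1% were called lower there.

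The ratio of Rbpjl to Rbpj reads per kb set the 2 paralogs against each other within a cell class. In Cpa1 cells it was 87.6, 57.6, 66.9 and 37.7 in E13.25 plates 1 to 4 and 353, 229 and 443 in tip 1, tip 2 and trunk 2. The groups did not overlap, and the mean log2 ratio was 2.46 higher at E15.25, a ratio 5.52-fold higher (exact two-sided permutation test, p = 0.0571, the smallest that 4 against 3 plates can give). Plate 2, with 3 Cpa1 cells, was included here, although it stayed outside the fits of Cpa1 cells. The test takes plates as independent, whereas tip 2 and trunk 2 come from the same bud. In Cpa1+Spp1 cells the ratio was 13.5, 19.4, 82.3 and 25.5 at E13.25 and 84.5, 274 and 50.3 at E15.25, and the ages overlapped. The value of tip 1 rests on 2 cells with 38 Rbpjl reads and 1 Rbpj read. In Spp1 cells Rbpj exceeded Rbpjl in all 7 plates, with ratios of 0.0342 to 0.816 at E13.25 and 0.551 to 0.827 at E15.25.

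**Figure D5:**
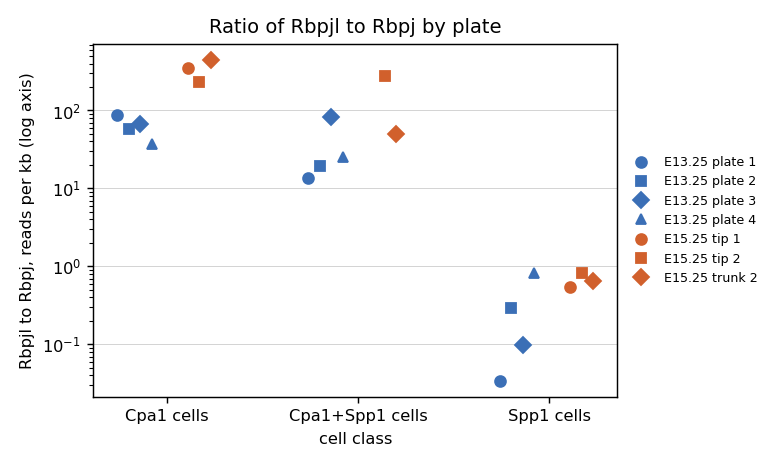
Ratio of Rbpjl to Rbpj (reads per kb of exon, log axis) in each plate with at least 3 cells of the class, for 3 cell classes, E13.25 in blue and E15.25 in orange. In Cpa1 cells the E15.25 plates lie between 229 and 443, above all E13.25 plates, and in Spp1 cells all 7 plates lie below 1.

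Other genes of the acinar programme gave a frame for the factors, as counts from lists and with no test of the list. Of 20 genes for digestive enzymes and other acinar products, 9 were higher at E15.25 on whole plates (1 to 8 on leaving out 1 plate) and 5 in Cpa1 cells (2 to 7), with medians of 4.48 and 3.53 (log2). Among them were the lipase-related Pnliprp1 (4.50 on whole plates, 3.35 in Cpa1 cells) and Prss1, for which no fold is given because its reads may belong to near-identical trypsinogen genes. Over all genes, 0.468% were called higher at E15.25 on whole plates and 0.606% in Cpa1 cells. Of 4 secretory genes tied to Bhlha15 (Rab3d, Rab26, Gjb1 and Atp2c2) none was called between ages by edgeR, with 2 at an unadjusted p under 0.05 in each comparison, and DESeq2 called 1 on whole plates and 2 in Cpa1 cells. Over all genes, 3551 of 20728 on whole plates and 2189 of 13863 in Cpa1 cells had such an unadjusted edgeR p. DESeq2 called 10.2% of all genes on whole plates and 9.87% in Cpa1 cells. Between classes, the vesicle GTPase gene Rab26 (6.56) and Rab3d (2.39) were higher in Cpa1 than in Spp1 cells, and the gap junction gene Gjb1 was higher than in Neurod1 (5.40) and Col3a1 cells (7.90).

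Of 9 other factors of acinar cells, 1 was higher in Cpa1 than in Spp1 cells, Xbp1 (3.59), a factor of the secretory stress response. Against Neurod1 cells 2 were higher, Xbp1 (1.91) and Myc (6.42), and against Col3a1 cells 7, among them the endoderm factor Foxa2 (7.05) and Prox1 (6.17). Gata6, the paralog of Gata4, was not called in any comparison: its log2 difference was -0.87 (95% interval -2.07 to 0.33, adjusted p = 0.497) for Cpa1 minus Spp1 cells and 0.25 (-1.31 to 1.82, adjusted p = 0.901) between ages in Cpa1 cells. Of 12 trunk and endocrine factors 4 were lower in Cpa1 than in Spp1 cells, among them Insm1 (-6.48) and Neurog3 (-7.36) of the endocrine lineage and the trunk factor Nkx6-1 (-2.51, adjusted p = 0.0028). Against Neurod1 cells 4 of the 12 were higher, among them Hes1 (5.61) and Onecut1 (6.94), and 7 were lower, among them Pax6 (-9.84). Over all 17252 genes, 2.18% were called higher and 2.27% lower in Cpa1 than in Spp1 cells. Against Neurod1 cells the shares were 10.7% higher and 8.05% lower, and against Col3a1 cells 8.87% higher and 12.1% lower. Between ages in Cpa1 cells Sox9 (-1.42, 95% interval -2.17 to -0.66, adjusted p = 0.0870) and Nkx6-1 (-1.89, -2.93 to -0.84, adjusted p = 0.0971) did not pass.

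Patterns over 37 sums of plate and class were compared by Pearson correlation of log2(CPM + 1) among 19755 genes, as a description, since the sums share plates and classes. Genes most like Ptf1a included Cela1 (r = 0.985), Rbpjl (0.977), Cel (0.974) and Serpini2 (0.969). Genes most like Rbpjl included Ptf1a (0.977), Cela1 (0.971), Cel (0.964) and Serpini2 (0.958). Cela1 and Cel encode pancreatic digestive enzymes. Bhlha15 was most like Serpini2 (0.908), Cel (0.899), Cela1 (0.894), Rbpjl (0.890) and the cholecystokinin receptor gene Cckar (0.882).

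Nr5a2 and Gata4 had other neighbours. Genes most like Nr5a2 included Rhov (0.943), Myo5c (0.934), Wfdc15b (0.934) and Rps24-ps2 (0.931), and its correlation with the other 4 members lay between 0.597 and 0.666. Gata4 was most like Gcat (0.856), Gm5809 (0.855), Nphs1 (0.842), Tmem97 (0.826) and Mab21l3 (0.822), and its correlation was 0.748 with Ptf1a and 0.754 with Rbpjl. Of the 10 pairs of members, Ptf1a and Rbpjl had the highest correlation (0.977) and Nr5a2 and Bhlha15 the lowest (0.597).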

How the data were processed

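Single-cell RNA-seq counts of 672 cells were used as the authors deposited them: whole reads per Ensembl gene and cell, not normalized. Per the submitters' processing notes the tools were GSNAP (2015-09-29) and HTSeq (0.5.3p3) and the build mm10. The strand setting and annotation are not given in the sources used here. Symbols came from GENCODE vM21 and matched 45229 of 46078 genes. Rows that name no gene were left out of the totals: unaligned reads (plate medians of 27.7% to 50.1% of all reads) with the other HTSeq summary rows, and spike-ins (2.61% to 27.3% of reads on genes and spike-ins). Cells with at least 100000 reads, at least 1500 genes and at most 20% mitochondrial reads were kept. Doublets were not called, because cells were sorted 1 to a well, and an alternative left out the 5% of cells with the most genes.

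Reads were summed per plate, or over the cells of a class on a plate (5 or more), and tested with edgeR 4.0.16 (quasi-likelihood, TMM, Benjamini-Hochberg adjustment over all genes, threshold 0.05) in R 4.3.3. The fit between classes had the plate as a block, since the classes of a plate share its source. DESeq2 1.42.0 was an alternative. The fits were tested on simulated data. Named genes are the 5 members, Rbpj, Gata6, Sox9 and Nkx6-1, up to 2 genes with the smallest p in each direction of each list, and the 5 genes most like each member, some of which are not reported here. The members and lists were chosen with earlier results of these data known. Scaling without TMM, leaving out cells under 300000 reads, and the single cells described one by one were chosen after seeing the data.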

Additional observations from a re-analysis of the deposited data

Results flagged for a closer look

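In the 4 E13.25 plates, Bhlha15 in Spp1 cells stood at 24.6 CPM in plate 2 and between 0.321 and 2.22 CPM in the others, so that 1 plate lay far from the rest. It was the 1 such value among 25 groups of 4 plates examined, and chance alone marks about 1 in 20 groups.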

How the results depend on the processing

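Ptf1a, Rbpjl and Bhlha15 stayed higher in Cpa1 than in Spp1 cells, and all 5 members higher in Cpa1 than in Col3a1 cells, under all 20 alternatives tried for each contrast. The age calls were the fragile ones. On whole plates 141 genes were called. The count was 2118 with DESeq2, 312 without TMM, 580 with reads scaled to equal weight per cell and 63 without the cells with the most genes. It was 19 with the tip plates alone and 11 to 63 on leaving out 1 plate. Of the 5 members 2 were called on whole plates, against 4 with DESeq2 and 1 without TMM. None was called without the cells with the most genes, with the tip plates alone or on leaving out any 1 plate. In Cpa1 cells 126 genes were called, against 1368 with DESeq2, 216 with all genes that had a read, 393 without TMM, 455 with equal weight per cell, 44 without the cells with the most genes, 69 with lower class minimums, 360 with Cpa1+Spp1 cells counted in, 44 with at least 10 cells per plate, 28 with the term for unaligned reads, 11 with the tip plates alone and 9 to 83 on leaving out 1 plate. Of the members 1 was called in Cpa1 cells, against 4 with DESeq2 and 2 with equal weight per cell. The count was 0 with the tip plates alone and 0 to 1 on leaving out 1 plate. The term for unaligned reads left plate 4 as the only E13.25 plate against the E15.25 plates. A minimum of 10 cells left plate 3 as the only E13.25 plate in Cpa1 cells. Counts under these settings are not given.

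Between classes, 767 genes separated Cpa1 from Spp1 cells, against 2229 with DESeq2 and 426 to 729 on leaving out 1 plate (440 without tip 1, 426 without trunk 2). Against Neurod1 cells the count was 3232, with 5480 by DESeq2, 355 with at least 10 cells and 2345 to 3149 on leaving out 1 plate, and the members called were 5, with 2 at 10 cells and 4 to 5 on leaving out 1 plate. Against Col3a1 cells it was 3611, with 5580 by DESeq2. Without the replicate block the 3 counts were 934, 3501 and 3697, and 4, 4 and 5 members were called. No paired analysis was possible of age because a pancreas number at E13.25 and a bud number at E15.25 stand for different embryos.

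For age by class 1 gene was called, against 793 with DESeq2, 3 with all genes that had a read and 2 without TMM. The count was 7 with equal weight per cell, 2 without the cells with the most genes and 2 at 3 cells. It was 0 with lower minimums and on leaving out any 1 plate. None of the members was called, against 1 with DESeq2. The Bhlha15 estimate of -0.25 turned to 1.11 with Cpa1+Spp1 cells counted in and to 0.92 at 3 cells. At 10 cells, with plate 3 as the only E13.25 plate, it was 1.21. It ran from -1.10 to 0.50 on leaving out 1 plate (0.48 without plate 4, 0.50 without tip 2). The cause of these changes was not tested. The share of E15.25 Cpa1 cells with all 5 factors, 83.1%, was 96.1% at 1 read and 43.3% at 50 CPM, and 80.9% to 86.4% on leaving out 1 plate. With 3 or 4 plates per age and few Neurod1 cells, the number of plates and cells limits the precision.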
